A study of Mus musculus with 8 samples.

Results

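The transporters described here are those by which the endothelium of brain capillaries moves nutrients, hormones and drugs between blood and brain. The 10 members were chosen by name, as non-control probes that carry the gene symbol Slco1a4, Slco1c1, Slc2a1, Abcb1a, Abcg2, Abcc4, Slc7a5, Slc16a1, Slc22a8 or Slc38a5. All 10 were found, on 12 probes of the array, and all 10 passed the filter on dim probes, among 19751 genes that did. The tissue was the cortex of 8 male mouse pups of the inbred strain C57BL/6NCr at postnatal day 1.5, with 1 Cy3-labelled Agilent array per pup. The ischemia group held 4 pups whose mothers had their uterine arteries clipped for 14 min under anesthesia at embryonic day E16.5, and the control group held 4 pups. Whether the control mothers were anesthetised or operated on is not in the labels, nor is litter, so the p-values measure the spread between these pups. All 8 arrays were on 1 slide with 1 group in each slide row, so slide row and group cannot be told apart. The cortex was taken whole, so fewer capillary cells and less RNA per cell cannot be told apart for any gene named here.

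The blood-brain barrier is formed by endothelial cells whose tight junctions close the path between cells, so that nutrients enter through carriers. Solute carriers (SLC and SLCO genes) move glucose, amino acids, monocarboxylates and organic anions along or against gradients, and ATP-binding cassette (ABC) pumps use ATP to return drugs and metabolites to the blood. Several members also have other sites in and around the brain, among them the choroid plexus, the meninges and astrocytes, and a bulk value adds these up.

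Values are log2 of the processed signal over the array's 75th percentile, and a difference is ischemia minus control on that scale. No member passed the test over all genes (limma, adjusted p from 0.221 to 0.976, threshold 0.05), where 1 of 19751 genes, or 0.00506%, passed. At an unadjusted limma p under 0.05 there were 4 members, against 10.9% of all genes. Of these, Slco1a4, Abcb1a and Slc2a1 had higher means in ischemia, where 3.25% of all genes had such a p and were higher, and Slc38a5 had a lower mean, where 7.65% were lower. For the other 6 members the 95% interval of the difference included 0. Over the 10 members, 5 differences were above 0, as were 43% over all genes, and 5 below, with a median of 0.03, beside -0.02 over all genes. The groups did not overlap for 2 members, Slco1a4 (higher) and Slc38a5 (lower), where 6.55% of all genes had no overlap. Slco1a4 was tested only because its ischemia arrays were above background, so nothing is read from its place in these counts. With probes above background on all 8 arrays, 9 members were tested and 3 had an unadjusted p under 0.05, where 11.5% of all genes did. By direction, 2.27% of all genes were higher without overlap and 4.28% lower. The ischemia values of the transporters thus lay on both sides of the controls, and the plot of values by array shows each of them.

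**Figure D1:**
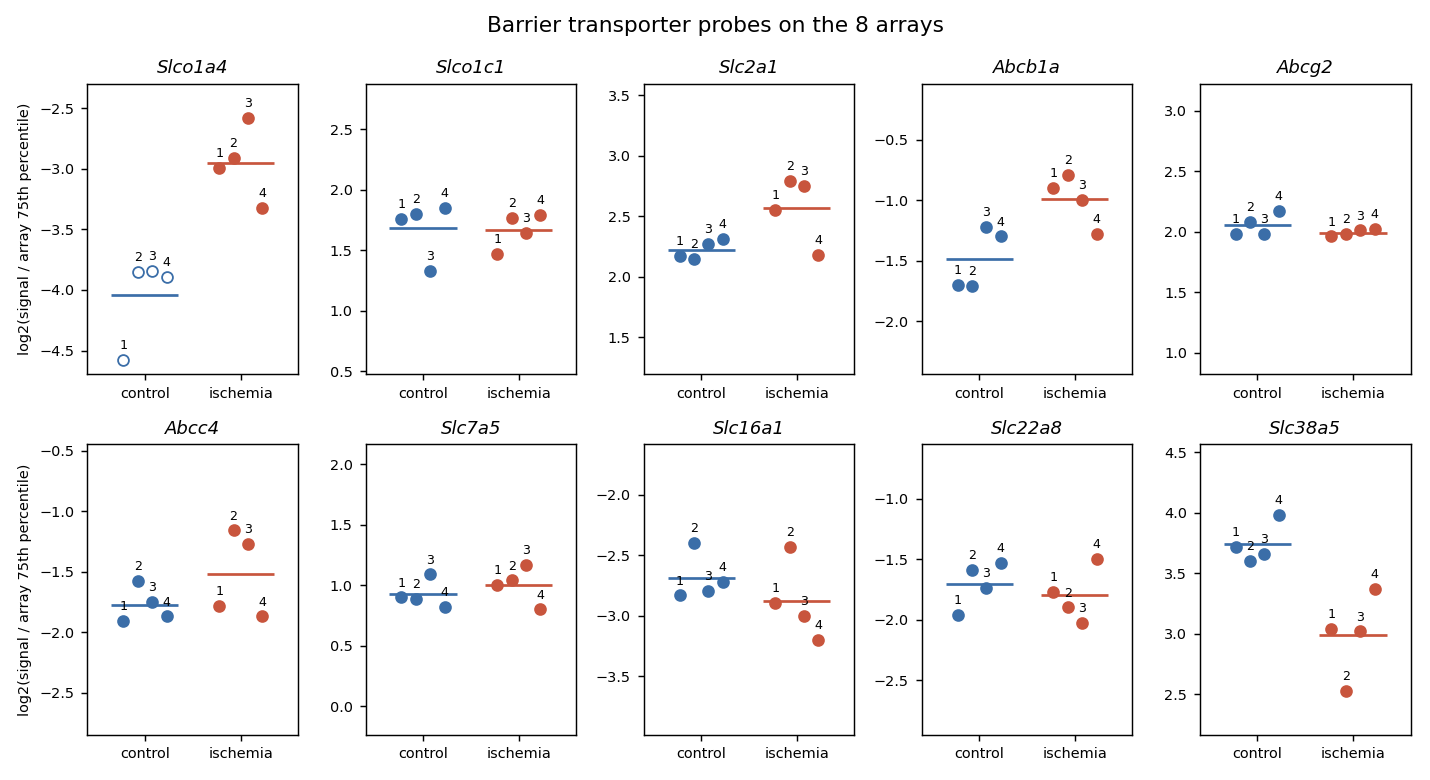
Values of the 10 transporters on the 8 arrays, as log2 of the signal over the array's 75th percentile, with replicate numbers beside the points and bars at the group means (4 arrays per group); every panel spans the same range of 2.4 log2 units around its own centre. Open points were not well above background. For Slco1a4 the 4 ischemia arrays lie between -3.32 and -2.58 and the controls between -4.58 and -3.84; for Slc38a5 the ischemia arrays lie between 2.53 and 3.37 and the controls between 3.60 and 3.98.

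The sequences below identify the probes of the 4 members with the smallest p, so that the transcript behind each value can be traced. Each line gives the first 30 of the probe's 60 bases, from its 5′ end. In mm9, the build of the array's design, the Slco1a4 probe lies at chr6:141754675-141754734 (- strand), the Abcb1a probe at chr5:8748075-8748134 (+ strand), the Slc2a1 probe at chr4:118809864-118809923 (+ strand) and the Slc38a5 probe at chrX:7857241-7857300 (+ strand). Whether they lie in coding exons or untranslated parts was not analysed here.
Slco1a4: tatctcggtggatatgtgattgcctaatac
Abcb1a: actcagacatgggcacctgagttcagatcc
Slc2a1: acccacttgtaaatacaccaacaaactcct
Slc38a5: cctagatgaagctgttagggttaccctggc

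Among the organic anion carriers, Slco1a4, which encodes Oatp1a4, a carrier of bile salts, steroid conjugates and drugs, was measured by a dim probe. Its processed signal was 14.6, 21.2, 22.4 and 26.3 in control replicates 1 to 4 and 45.1, 48.5, 63.5 and 39.4 in ischemia replicates 1 to 4. Every ischemia array lay above every control. In ischemia 4 of 4 arrays read the probe well above background, and in control 0 of 4 did, so the control level is only a bound. The measured means were -4.04 ± 0.36 in control and -2.95 ± 0.30 in ischemia (SD, n = 4 each), a difference of 1.09 (SE 0.21, limma adjusted p = 0.221, unadjusted p = 0.00064). The control level was also set on each control array at the lowest value among probes counted as well above background. Where the probe's own value was higher, that was used (mean -3.86). Against this level the ischemia mean of Slco1a4 was 1.87-fold higher under this background correction. On control replicate 4 the probe read 26.3 and was not well above background, while the lowest spot that was read 24.1. The ratio is therefore not a strict lower bound. It is on the group means alone and does not take in the spread between pups. With normexp and its offset of 50, which shrinks dim probes by construction, the difference was 0.31 (limma adjusted p = 0.234). The probe shares a run of 14 bases with 1 other probe on the array, which differed by -0.20.

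Slco1c1, the carrier of the thyroid hormone thyroxine in capillaries and astrocytes, lies on the same chromosome and within the same gene family. The nearest probes of both genes are 236 kb apart. Its processed signal was 1178, 1063, 804 and 1406 in control replicates 1 to 4 and 995, 1247, 1177 and 1356 in ischemia replicates 1 to 4, and after scaling the ischemia arrays, at 1.47 to 1.79, lay within the control range of 1.33 to 1.85. The difference was -0.02 (SE 0.13, 95% interval -0.31 to 0.27, limma adjusted p = 0.976), and its sign turned under 8 of 22 alternatives. A second Slco1c1 probe differed by 0.11 (95% interval -0.05 to 0.27). Slc22a8, which encodes Oat3 and clears organic anions from the brain and the cerebrospinal fluid, ran from 89.3 to 136 in control and from 93.0 to 139 in ischemia. Its difference was -0.09 (SE 0.13, limma adjusted p = 0.855), with the groups overlapping throughout.

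The glucose carrier gene Slc2a1 encodes Glut1, through which glucose enters the brain. Its processed signal was 1571, 1360, 1540 and 1947 in control replicates 1 to 4 and 2093, 2533, 2541 and 1785 in ischemia replicates 1 to 4. On the scaled values, 3 of 4 ischemia arrays lay above every control, while ischemia replicate 4, at 2.18, lay within the control range of 2.15 to 2.31. The means were 2.23 ± 0.08 in control and 2.57 ± 0.28 in ischemia (SD, n = 4 each), a difference of 0.34 (SE 0.13, 95% interval 0.04 to 0.64, limma adjusted p = 0.408). Without ischemia replicate 4 the difference was 0.47 (limma adjusted p = 0.193). It was 0.26 without ischemia replicate 2 (limma adjusted p = 0.660) and 0.28 without ischemia replicate 3 (limma adjusted p = 0.609). Slc16a1, which encodes Mct1, the carrier of lactate and ketone bodies, had a dim probe, with signals from 46.3 to 59.5 in control and from 42.8 to 67.5 in ischemia. Its difference was -0.20 (SE 0.17, limma adjusted p = 0.727), and it was -0.35 without ischemia replicate 2 and -0.09 without ischemia replicate 4. Bsg, the chaperone that brings Mct1 to the cell surface, differed by -0.04 (SE 0.08).

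Among the amino acid carriers, Slc38a5, which encodes Snat5, a carrier of glutamine and other neutral amino acids, had the smallest p among the members with a lower mean in ischemia. Its processed signal was 4606, 3715, 4032 and 6172 in control replicates 1 to 4 and 2941, 2115, 3076 and 4078 in ischemia replicates 1 to 4. The raw signals overlap, since ischemia replicate 4 exceeds control replicates 2 and 3, but after scaling all 4 ischemia arrays lay below every control. The means were 3.74 ± 0.17 and 2.99 ± 0.35 (SD, n = 4 each), a difference of -0.75 (SE 0.17, 95% interval -1.14 to -0.36, limma adjusted p = 0.238, unadjusted p = 0.00197). This corresponds to a ratio of 0.595. The difference was between -0.96 and -0.60 over 22 alternatives, and its unadjusted p stayed under 0.05 in all 22.

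Slc7a5 encodes Lat1, which carries large neutral amino acids such as leucine and, together with the thyroid carriers, thyroid hormone. The probe with the higher mean signal differed by 0.08 (SE 0.09, 95% interval -0.14 to 0.30, limma adjusted p = 0.820; 0.02 without ischemia replicate 3 and 0.15 without ischemia replicate 4), with signals of 651, 565, 683 and 690 in control and 719, 748, 855 and 684 in ischemia, replicates 1 to 4. The other probe read 607, 547, 552 and 747 in control and 781, 747, 774 and 785 in ischemia, and its 4 ischemia arrays, at 1.00 to 1.12, lay above the controls at 0.79 to 0.93. That probe differed by 0.21 (95% interval 0.07 to 0.35, limma adjusted p = 0.355 over 27131 probes, of which 0 passed by limma and 2742, or 10.1%, had an unadjusted p under 0.05). The probes lie at chr8:124430996-124431055 and chr8:124405136-124405195 (mm9, - strand). The 95% intervals of their differences overlap. Slc3a2, the heavy chain that pairs with Lat1, differed by 0.05 (SE 0.07, limma adjusted p = 0.855).

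Of the ATP-driven pumps, Abcb1a, which encodes P-glycoprotein, the pump that keeps many drugs out of the brain, had scaled log2 values of -1.70, -1.71, -1.22 and -1.30 in control replicates 1 to 4 and -0.90, -0.79, -1.0 and -1.28 in ischemia replicates 1 to 4. Of the ischemia arrays, 3 of 4 lay above every control, and ischemia replicate 4, at -1.28, lay just under control replicate 3, at -1.22. The means were -1.49 ± 0.26 and -1.0 ± 0.21 (SD, n = 4 each), a difference of 0.49 (SE 0.15, 95% interval 0.15 to 0.83, limma adjusted p = 0.325). With normexp it was 0.32. The neighbouring paralogue Abcb1b, whose probe lies 118 kb away, was dim, and differed by 0.35 with an SE of 0.30 (limma adjusted p = 0.737).

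Abcg2, which encodes the breast cancer resistance protein, had the narrowest spread of the 10 members. Its signal ran from 1259 to 1762 in control and from 1398 to 1595 in ischemia, and the within-group SD of its scaled values was 0.07, where the median over all genes was 0.14. The difference was -0.06 (SE 0.06, 95% interval -0.20 to 0.08, limma adjusted p = 0.778). Abcc4, the pump Mrp4 for conjugated anions and nucleotide analogues, was split within the ischemia group. It read 105, 163, 157 and 108 in ischemia replicates 1 to 4, against 92.8 to 107.2 in control. After scaling, ischemia replicates 2 and 3, at -1.16 and -1.27, stood above all controls, which ran from -1.91 to -1.58. Replicates 1 and 4, at -1.78 and -1.87, lay within that range. The difference was 0.26 (SE 0.17, limma adjusted p = 0.638), 0.14 without ischemia replicate 2 and 0.56 without ischemia replicates 1 and 4 (limma adjusted p = 0.238). Replicates 1 and 4 are the ischemia arrays within the control range, so leaving them out makes the difference larger by construction.

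**Figure D2:**
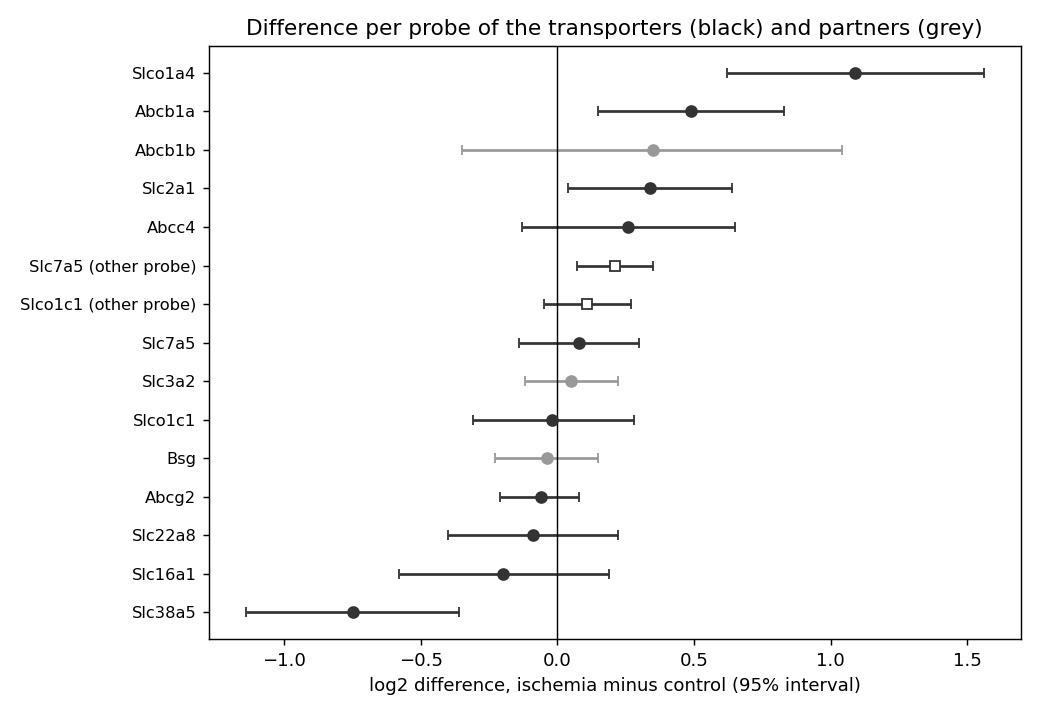
Difference between the groups for each probe, as the log2 value of ischemia minus control with its 95% interval from limma (4 arrays per group). Black marks are the transporters, grey marks the partner or paralogue genes Abcb1b, Slc3a2 and Bsg, and open squares the second probes of Slc7a5 and Slco1c1. The intervals of Slco1a4, Abcb1a, Slc2a1, the second Slc7a5 probe and Slc38a5 lie clear of 0.

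Across arrays, the 4 members with an unadjusted p under 0.05 had the same ischemia array closest to the controls. In 4 of 4, ischemia replicate 4 was the ischemia array nearest to the control mean, at 0.72 for Slco1a4, 0.20 for Abcb1a, -0.05 for Slc2a1 and -0.37 for Slc38a5. These members were picked for their small p, and the share of all genes with replicate 4 nearest was not counted. The count is therefore not read as a trait of the transporters. Ischemia replicate 2 lay farthest for Abcb1a, Slc2a1 and Slc38a5, at 0.69, 0.57 and -1.21, and replicate 3 for Slco1a4, at 1.46. Over the 8 arrays the genes with the profile most like that of Slco1a4, by Pearson correlation of log2 values, were Pcdhga9 (r = 0.970), Mpeg1 (r = 0.966), Nfx1 (r = 0.964), Nptx2 (r = 0.954) and Irf2bp1 (r = 0.953). These are the highest among genes with a symbol and so are high by choice, and all arrays share 1 scaling. Slco1a4 was not well above background on any control array, so the correlations rest in part on values below that level. They differed between the groups by 0.17, 0.36, 0.10, 0.38 and 0.15.

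Genes of other tissues were high on some ischemia arrays. The meningeal list, with 14 of 19 genes measured, summed to between 86.7% and 107.3% of the control mean in control arrays and between 91.3% and 281% in ischemia arrays, with replicate 1 at 281% and replicate 4 at 267%. The choroid plexus list, with 6 of 15 measured, was between 93.2% and 104% in control arrays, 120%, 94.8% and 99.1% in ischemia replicates 1 to 3 and 3426% in replicate 4. Most of the sum on that array was Ttr, which encodes the transthyretin made by choroid plexus. Ttr exceeded its control mean by 10.12 in ischemia replicate 4. Ptgds, the prostaglandin synthase gene of the meninges, exceeded its own by 3.83 in replicate 1 and 4.27 in replicate 4. No gene of either list passed by limma, with medians of 0.26 for the meninges (10 higher, 4 lower, Igf2 at 0.34) and 0.52 for the choroid plexus (4 higher, 2 lower, Enpp2 at 0.28), and 3 higher and 1 lower meningeal gene had an unadjusted p under 0.05. Without ischemia replicates 1 and 4 the differences were 1.29 for Slco1a4, 0.59 for Abcb1a, 0.54 for Slc2a1 and -0.96 for Slc38a5. For all 4, replicate 4 was the ischemia array nearest to the control mean. Leaving it out therefore makes each difference larger by construction. The part of these other tissues in the transporter differences was not tested. Slc22a8, a gene also active in choroid plexus and meninges, was highest of the ischemia arrays in replicate 4, at 0.21 above the control mean. Ischemia replicate 1 stood at -0.07 and control replicate 4 at 0.18. Without ischemia replicates 1 and 4 Slc22a8 differed by -0.26 (limma adjusted p = 0.533). These were its highest ischemia arrays, so leaving them out lowers the difference by construction. Neuronal transcripts, as a check of the labelled tissue, were measured for 8 of 8 listed genes, 4 higher and 4 lower with a median of 0.00, and 0 passed by limma while 1 had an unadjusted p under 0.05. Snap25 differed by -0.02 (SE 0.10), Fezf2 by 0.23 and Tubb3 by -0.11.

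Genes that define the capillary wall lay on both sides of the controls. Of 28 measured genes of endothelial junctions and identity (30 listed), 16 were higher and 12 lower in ischemia, with a median of 0.05, and 0 passed by limma, while 5 higher and 2 lower had an unadjusted p under 0.05. Beside these and the lists before and after them, the shares over all genes were 3.25% higher and 7.65% lower at that p. Cldn5, the main claudin of the barrier, differed by 0.06 (SE 0.10) and Cdh5, the cadherin of endothelial junctions, by -0.06 (SE 0.09). Pecam1, an endothelial adhesion gene, differed by 0.02 with an SE of 0.31, and ischemia replicate 2 exceeded the control mean by 1.10. The genes of the list with the smallest p were Ly6c1 at 0.84 (SE 0.19, limma adjusted p = 0.235) and Ly6a at 1.18 (SE 0.27, limma adjusted p = 0.243), both surface antigen genes. Both lay higher without overlap, as did Vwf at 0.48 (limma adjusted p = 0.252). Kdr, the main VEGF receptor gene, at -0.31 (limma adjusted p = 0.243), and Cd34, a surface marker, at -0.25 (limma adjusted p = 0.306), lay lower without overlap. Vwf, Kdr and Cd34 were picked after their values were seen. The list's summed level was 97.1% to 103% of the control mean in control arrays and 89.6% to 111% in ischemia arrays. Its mean log2 value stood 0.18, 0.23, -0.02 and 0.01 from the control mean in ischemia replicates 1 to 4. It was highest on replicate 2, the array on which Abcb1a, Slc2a1 and Slc38a5 lay farthest from the controls, and its part in those values was not tested.

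Each array was also scaled on the mean of Cldn5 and Cdh5, a choice made after seeing the data. This scale could hardly move a difference between the groups, since those of Cldn5 and Cdh5 are 0.06 and -0.06, and on ischemia replicate 2 they stood 0.09 and -0.11 from their control means. On it Slco1a4 differed by 1.09, Abcb1a by 0.49, Slc2a1 by 0.34 and Slc38a5 by -0.75. By limma 0 of 10 members passed and 3 had an unadjusted p under 0.05 (Slc2a1 no longer did), where 5.42% of all genes did. With Pecam1 added to the scale, Slco1a4 was at 1.08 with a limma adjusted p of 0.0250, under the threshold. That value rests on a scale chosen after seeing the data, on Pecam1, which stood apart on ischemia replicate 2, and on a gene tested only because its ischemia arrays were above background; in the other alternatives its adjusted p was 0.144 to 0.466.

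Other transporters and receptors of the barrier were measured beside the members. Of 27 listed, 26 were measured, 18 higher and 8 lower with a median of 0.06, and 0 passed by limma, with 2 at an unadjusted p under 0.05, both higher. These were the prostaglandin carrier gene Slco2a1 at 0.72 (SE 0.11, limma adjusted p = 0.165), whose groups did not overlap, and the pump gene Abcc5 at 0.24 (SE 0.10, limma adjusted p = 0.442). Mfsd2a, a carrier of lipids that marks the barrier endothelium, differed by -0.07 (SE 0.06). Of the Wnt and Norrin pathway, which induces and keeps the barrier, 17 of 18 listed genes were measured, 10 higher and 7 lower with a median of 0.06. In that pathway 0 passed by limma, and 2 lower genes had an unadjusted p under 0.05. The co-receptor genes Adgra2 and Lrp5 differed by -0.45 (SE 0.11, limma adjusted p = 0.243) and -0.16 (SE 0.06, limma adjusted p = 0.386), each without overlap between the groups.

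Lists of neighbouring cells stood as follows. Pericyte genes, of the cells that wrap capillaries, were lower in 8 of 12 measured, with a median of -0.04 and 4 at an unadjusted p under 0.05, all lower. Notch3 and Higd1b had the smallest p there and each differed by -0.34 (limma adjusted p = 0.227 and 0.250), while Pdgfrb differed by -0.06 (SE 0.05). The pericyte list's summed level, which its brightest genes weigh on most, was 94.3% to 107.1% of the control mean in control arrays and 79.5% to 95.6% in ischemia arrays. Its mean log2 value, relative to the control mean, overlapped more, at -0.09 to 0.11 in control arrays and -0.15 to 0.01 in ischemia arrays. Astrocyte genes were higher in 8 of 11 (median 0.10), with Sparcl1 at 0.27 and Aldoc at 0.26, microglial genes in 6 of 10 (median 0.08), with C1qa at 0.42 and C1qc at 0.35 but, picked after their values were seen, P2ry12 at -0.30 and Fcrls at -0.22, and red blood cell genes in 0 of 8 (median -0.49), where Hba-a2 differed by -0.54 and Hbb-b2 by -0.57, globin genes whose copies share nearly all their sequence. No gene of these 4 lists passed by limma, and 5 higher and 8 lower genes among them had an unadjusted p under 0.05. The part of these other cells in the transporter differences was not tested beyond the values given.

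**Figure D3:**
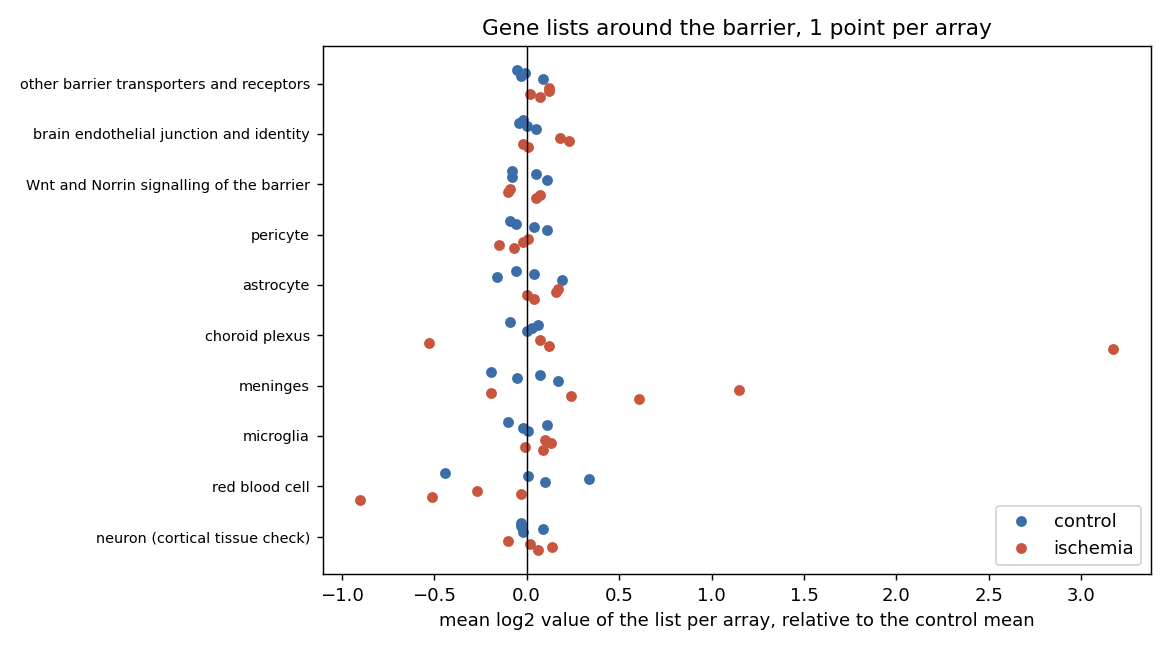
Mean log2 value of each gene list per array, relative to the mean of the 4 control arrays, with 1 point per array (4 control, 4 ischemia). The choroid plexus point of ischemia replicate 4 lies at 3.17 and the meningeal point of replicate 1 at 1.15, while the endothelial list stays between -0.04 and 0.23.

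The stretches before the gene starts of the same 4 members are shown so that the letters before each start stand beside its values. They are 250 bases of RefSeq sequence on GRCm38.p6, which 9 of 10 members have in the table used, in lower case with any match to 5 short motifs in capitals. The motifs, searched on both strands, were ACGTG and GCGTG for the hypoxia response element, CTTTGAT and CTTTGTT for TCF/LEF, the factors at the end of the Wnt pathway, and GGGCGG for the GC box. A CACGTG holds ACGTG on each strand. Of all 32851 windows of the same length, 16.6% hold ACGTG, 28.2% GCGTG, 3.21% CTTTGAT, 5.03% CTTTGTT and 32.7% GGGCGG. The windows are at chr6:141856221-141856470 (- strand) for Slco1a4, chr5:8566841-8567090 (+ strand) for Abcb1a, chr4:119108495-119108744 (+ strand) for Slc2a1 and chrX:8271131-8271380 (+ strand) for Slc38a5.
Slco1a4: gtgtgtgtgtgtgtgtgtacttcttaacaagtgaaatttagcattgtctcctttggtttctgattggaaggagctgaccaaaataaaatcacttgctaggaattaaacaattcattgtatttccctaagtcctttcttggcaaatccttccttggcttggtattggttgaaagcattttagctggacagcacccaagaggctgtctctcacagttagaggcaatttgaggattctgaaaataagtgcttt
Abcb1a: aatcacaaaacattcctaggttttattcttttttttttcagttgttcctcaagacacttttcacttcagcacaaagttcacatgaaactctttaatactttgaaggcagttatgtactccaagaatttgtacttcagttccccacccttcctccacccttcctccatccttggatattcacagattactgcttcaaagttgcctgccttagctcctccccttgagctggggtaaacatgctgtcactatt
Slc2a1: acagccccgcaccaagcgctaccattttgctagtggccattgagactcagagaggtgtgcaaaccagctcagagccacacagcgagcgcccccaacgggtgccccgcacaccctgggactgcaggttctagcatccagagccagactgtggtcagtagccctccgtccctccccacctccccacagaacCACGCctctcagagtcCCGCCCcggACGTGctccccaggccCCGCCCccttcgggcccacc
Slc38a5: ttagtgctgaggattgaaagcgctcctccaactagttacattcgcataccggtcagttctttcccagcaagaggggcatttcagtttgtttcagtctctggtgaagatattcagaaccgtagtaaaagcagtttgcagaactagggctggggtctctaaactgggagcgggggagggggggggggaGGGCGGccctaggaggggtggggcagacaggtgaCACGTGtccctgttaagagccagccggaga
The Slc2a1 window holds 1 ACGTG, 1 GCGTG and 2 GGGCGG, the Slc38a5 window 1 CACGTG and 1 GGGCGG, and those of Slco1a4 and Abcb1a none of the 5 motifs. Of the other members, Slc16a1 and 1 of the Abcc4 windows hold 1 CACGTG and 2 GCGTG each, with 1 GGGCGG in Slc16a1 and 3 in that Abcc4 window. The 3 Abcg2 windows hold 0, 2 and 4 GGGCGG and no other motif, Slco1c1 and the other Abcc4 window hold 1 CTTTGTT each, and the Slc22a8 window holds none. The GC content of the 4 printed windows is 39.2% for Slco1a4, 40.4% for Abcb1a, 66.4% for Slc2a1 and 55.2% for Slc38a5. A match is a description of these letters and not a site.

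**Figure D4:**
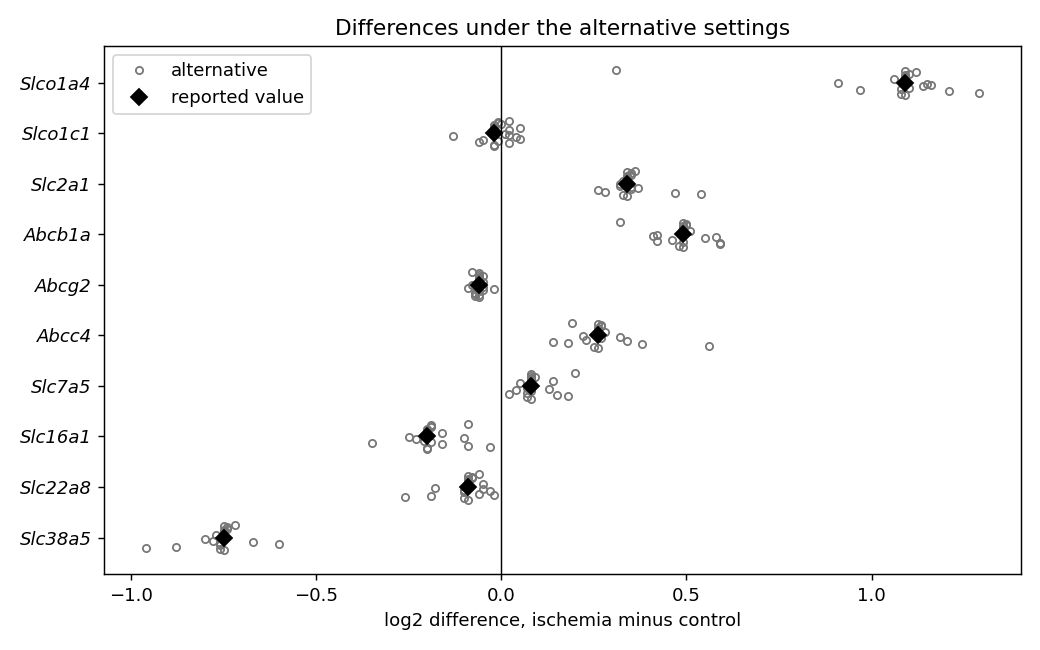
Difference between the groups for each transporter as reported (filled diamond) and under each alternative setting (open circles), on the log2 scale, 4 arrays per group or fewer where arrays were left out. Slco1a4 stays between 0.31 and 1.29, Abcb1a between 0.32 and 0.59, Slc2a1 between 0.26 and 0.54 and Slc38a5 between -0.96 and -0.60, while Slco1c1 falls on both sides of 0.

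The plot of the alternatives shows how far each value moves with the processing. The signs of 9 of 10 members held in every alternative that gave a value, and Slco1c1 was the exception.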

How the data were processed

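Per the file headers, Agilent Feature Extraction 10.7.3.1 turned the scans into values, from Cy3-labelled cRNA of 50 ng RNA. The deposited values are spot intensities on a linear scale: the processed signal, already corrected for background, and for 1 alternative the mean and local background signals. The authors' value table is a ratio, the processed signal over 1 constant per array (within 0.0498% at table values of 0.1 or more, with medians per array from 0.0836 to 0.100); the meaning of that constant was not found in the headers or labels. Its direction is that of the signal, and it served as an alternative.

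Control spots and outlier-flagged spots were left out, log2 values of a probe's spots were averaged, and each array's 75th percentile (305.6 to 393.3) was subtracted. Between 47.6% and 51.7% of spots were well above background and 0 were saturated. Probes well above background on at least 4 of 8 arrays were kept (27131), and a gene with several was represented by its brightest kept probe on average. Probes were named through RefSeq accessions, then symbols (27235 by accession, 3581 by current symbol, 565 by an older symbol, 24300 as in the files). Groups were compared with limma 3.58.1 in R 4.3.3, two-sided, with Benjamini-Hochberg adjustment over all genes; the code was tested on simulated data. The number of arrays limits the precision.

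All members, their partners or paralogue (Abcb1b, Slc3a2, Bsg), Cldn5, Cdh5, Pecam1, Mfsd2a, Ttr, Ptgds, Pdgfrb and Snap25, and in each of 10 lists the genes that passed or the 2 with the smallest p were named by rule, with the 5 genes most correlated with the member of smallest p. The members and lists were chosen with earlier results of these data known. Alternatives covered background correction, scaling, filters, probe rules, variance models, the replicate block, the authors' table and arrays left out.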

Additional observations from a re-analysis of the deposited data

Results flagged for a closer look

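Within groups of 4 arrays, 78 sets of values were checked with Dixon's ratio for an array lying apart from the other 3, and 3 exceeded the 95% critical value, while about 3.9 would do so by chance if the sets were independent. Slco1a4 was low in control replicate 1 (ratio 0.923), where its signal was 14.6 and not well above background. Without that array the difference in Slco1a4 was 0.91. Slco1c1 was low in control replicate 3 (ratio 0.831), on a probe whose difference was -0.13 without that array. Its second probe read 706 there, where the other controls read 829, 711 and 1002. Pecam1 was high in ischemia replicate 2 (ratio 0.918), at a signal of 144 where the other ischemia arrays read 53.7, 52.1 and 59.0.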

How the results depend on the processing

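Of 10 members, 0 passed the adjusted limma threshold in any alternative but 1. Scaled on Cldn5, Cdh5 and Pecam1, a setting chosen after seeing the data, 1 passed (Slco1a4 at 1.08, adjusted p = 0.0250). That scale gave limma prior degrees of freedom of 24.8, beside 2.35 in the reported fit, and over the other alternatives the adjusted p of Slco1a4 was 0.144 or more. The replicate block gave 0 members passing and 5 at an unadjusted p under 0.05, where 11.9% of all genes were, and 0 genes passing of all. Same-numbered arrays correlated by 0.08, -0.06, 0.29 and 0.39 after group means were removed, and 4 of 8 arrays correlated best with their own number. These values cannot settle whether the numbers pair pups, and the reported fit did not treat them as pairs.

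Over all genes the count passing was 1. It was 0 with normexp, quantile normalization, the filter on all 8 arrays, no filter, every probe tested on its own and ischemia replicates 1 and 4 left out, 2 with median scaling, 20 with a trended and robust variance, and 0 to 1 with 1 array left out in turn. These counts of 0 are by limma and go with 1619 to 2742 at an unadjusted p under 0.05. The cause was not tested. With 1 array left out in turn, Slco1a4 ranged from 0.91 to 1.21, Abcb1a from 0.41 to 0.59, Slc2a1 from 0.26 to 0.47, Slc38a5 from -0.88 to -0.60, Abcc4 from 0.14 to 0.38, Slc7a5 from 0.02 to 0.15, Slc16a1 from -0.35 to -0.09, Slc22a8 from -0.19 to -0.02 and Abcg2 from -0.09 to -0.02. The unadjusted p of Slc2a1 was under 0.05 in 14 of 22 alternatives. Slco1c1 turned sign with normexp (0.02), the mean of its probes (0.05), array weights (0.02) and ischemia replicates 1 and 4 left out (0.02), and ranged from -0.13 to 0.05 with 1 array left out. With normexp Slc7a5 was 0.20, and Slco1a4, at 0.31, was smaller in size than Slc38a5 (-0.72), Slc2a1 (0.36) and Abcb1a (0.32). Slco1a4 had no value with the filter on all 8 arrays. Its control signals, below the level well above background, limit how well its fold is known.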
